A study of Mus musculus with 12 samples.

Results

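The tubulin isotypes described here are 10 genes chosen by symbol, 5 of α-tubulin (Tuba1a, Tuba1b, Tuba1c, Tuba4a and Tuba8) and 5 of β-tubulin (Tubb2a, Tubb2b, Tubb3, Tubb4b and Tubb5), out of 54022 genes in the count and FPKM tables. All 10 were found by name and all 10 passed the filter on low counts, which left 16222 genes for testing. The choice rested in part on the data, because the lower Tuba8 level at high glucose was known when the genes were chosen. The glucose differences of the isotypes are therefore given as a description. Counts of isotypes past the threshold used for all genes stand beside the share of all genes that passed it and support nothing, whereas the comparisons of TMAO with vehicle did not enter the choice and were tested.

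The cells were MIN6, a mouse line of insulin-secreting β-cells labelled wild type, in 4 conditions with 3 libraries each. They received vehicle or trimethylamine N-oxide (TMAO, a gut microbe-derived metabolite) at 100 nM for 18 h, with low glucose (LG) or high glucose (HG, 16.8 mM). The 18 h belong to the TMAO treatment, and how long these cells were held in either glucose is not given in the text used here. The conditions are called LG vehicle, LG TMAO, HG vehicle and HG TMAO below. The replicates are described as biological, but all 12 libraries come from a single transformed line, and no batch or culture day is given. Library totals ranged from 16793162 to 22340542 assigned reads. The β-cell label was matched by the markers, with Ins2 (insulin) at 22781 to 27445 FPKM and Iapp (islet amyloid polypeptide) at 11212 to 12927. Of 12 markers of other cell types, Gcg (glucagon) stood at 199.6 to 227.4 FPKM and Mbp at 13.9 to 16.6, while Krt19 (duct) and Ptprc (leukocyte) had no read in any library, which allows up to 3 reads per library.

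Microtubules are hollow polymers of α- and β-tubulin heterodimers, and mammals encode each subunit in several genes, the isotypes, which are expressed in different proportions in different tissues. The isotypes are most alike in their core and most different in the acidic tail at the carboxyl end, which faces outward and is the main platform for tubulin modifications and for motors. In β-cells microtubules serve as tracks for insulin granules, and their turnover is known to respond to glucose. Cells also adjust tubulin mRNA to the pool of free dimers: the ribosome-associated factor TTC5 recognises the first residues of a nascent tubulin chain and directs decay of the mRNA being translated.

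The first codons are shown because they carry that recognition site, with the first 4 codons in capitals (GENCODE M21 transcripts on GRCm38, coding strand).
Tuba1b: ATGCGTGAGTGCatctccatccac
Tuba8: ATGAGGGAATGCatatcggtccat
Tubb3: ATGAGGGAGATCgtgcacatccag
Tubb5: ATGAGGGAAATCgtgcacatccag
The 5 α-tubulin genes shared a cysteine codon, TGC, as the fourth codon, and the 5 β-tubulin genes shared an isoleucine codon, ATC. Tuba8 was the only α gene of the 5 with AGG and GAA as codons 2 and 3, synonymous with the CGT or CGC and the GAG of the other 4.

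The coding sequences also differed at their other end. The last 16 codons and the stop codon are shown for 5 genes, with the final codon before the stop in capitals.
Tuba1b: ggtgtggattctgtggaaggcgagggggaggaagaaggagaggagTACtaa
Tuba4a: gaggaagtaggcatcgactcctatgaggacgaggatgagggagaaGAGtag
Tuba8: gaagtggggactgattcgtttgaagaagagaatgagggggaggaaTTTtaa
Tubb3: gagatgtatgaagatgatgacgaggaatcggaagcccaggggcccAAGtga
Tubb5: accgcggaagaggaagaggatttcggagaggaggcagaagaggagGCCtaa
Tuba1a, Tuba1b and Tuba1c ended in a tyrosine codon, the residue removed and restored in the detyrosination cycle. Tuba8 ended in a phenylalanine codon and Tuba4a in a glutamate codon. Among the β-tubulin genes, Tubb3 ended in a lysine codon and the other 4 in an alanine codon. Between 8 and 10 of the last 16 codons of each gene encoded an acidic residue. Codon 40, which in most α-tubulins encodes the lysine that is acetylated on stable microtubules, was AAG in Tuba1a, Tuba1b, Tuba1c and Tuba4a and GCC, an alanine codon, in Tuba8.

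Similarity between the genes also bears on how their reads can be assigned. Coding sequences were 78.8 to 98.3% identical between pairs of α-tubulin genes and 81.2 to 96.5% between pairs of β-tubulin genes, with Tuba1a and Tuba1b the closest pair and Tuba8 between 78.8 and 80.8% of the other α genes. Of the 100-base windows along the transcript, 65.6% in Tuba1b, 53.4% in Tuba1c and 49.2% in Tuba1a also occurred in the transcript of another annotated gene, among them each other and several pseudogenes. The share was 36.9% in Tubb2a and 27.8% in Tubb2b, which match each other, and 29.2% in Tubb4b, which matches its pseudogenes and Gm16165. Tuba4a, Tuba8, Tubb3 and Tubb5 had no such window. Levels of the first 6 genes are therefore uncertain in how reads were split between copies. No 100-base stretch of the last 4 occurred in another transcript read in the same direction. Overlap with genes on the opposite strand was not part of this search and is described below. Tubb4b-ps1, a pseudogene with its own row, held 50 to 111 reads per library.

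Each isotype was located in mm10 as the tables give it. Tuba1b (15:98931425-98934565, minus strand), Tuba1a (15:98949841-98953551, minus) and Tuba1c (15:99029891-99038105, plus) lie close together on chromosome 15, and Tubb2a (13:34074274-34078007, minus) and Tubb2b (13:34126748-34130466, minus) on chromosome 13. The others stand alone, at 6:121210696-121226854 (plus) for Tuba8, 1:75214228-75219865 (minus) for Tuba4a, 8:123411424-123422015 (plus) for Tubb3, 2:25222160-25224702 (minus) for Tubb4b and 17:35833921-35838306 (minus) for Tubb5. Some overlap other annotated genes, and whether reads were counted by strand is not given in the sources used here. The antisense gene Gm15856 inside Tuba8 held 0 to 6 reads per library against 214 to 475 for Tuba8. Stk16, which overlaps the 3′ end of Tuba4a on the opposite strand, held 1059 to 1436 reads, Fam166a at the end of Tubb4b held 56 to 88, and Gm20388, which spans Tubb3, held 0.

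Levels are given in FPKM, reads scaled by gene length and library total, the per-length scale on which genes can be compared. Tubb5 was the most abundant isotype, at 334.5 to 405.1 FPKM over the 12 libraries, in the 99.7th percentile of tested genes by mean FPKM. Tuba1b followed at 283.0 to 356.4, Tuba1a at 143 to 187, Tubb4b at 125 to 164 and Tubb3, an isotype best known from neurons and also expressed in β-cell lines, at 74.0 to 110.3. Tuba1c reached 53.9 to 64.3, Tubb2a 52.0 to 61.3 and Tuba4a 34.5 to 39.2. Tuba8 stood far lower, at 5.52 to 11.2 FPKM, and Tubb2b lowest, at 3.50 to 5.03. In LG vehicle the order from Tubb5 down to Tubb2b was clear of overlap between neighbouring genes except for Tuba1a with Tubb4b and Tuba1c with Tubb2a, whose 3 libraries overlapped. At high glucose Tubb2a averaged above Tuba1c, with overlap in HG TMAO and none in HG vehicle.

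**Figure D1:**
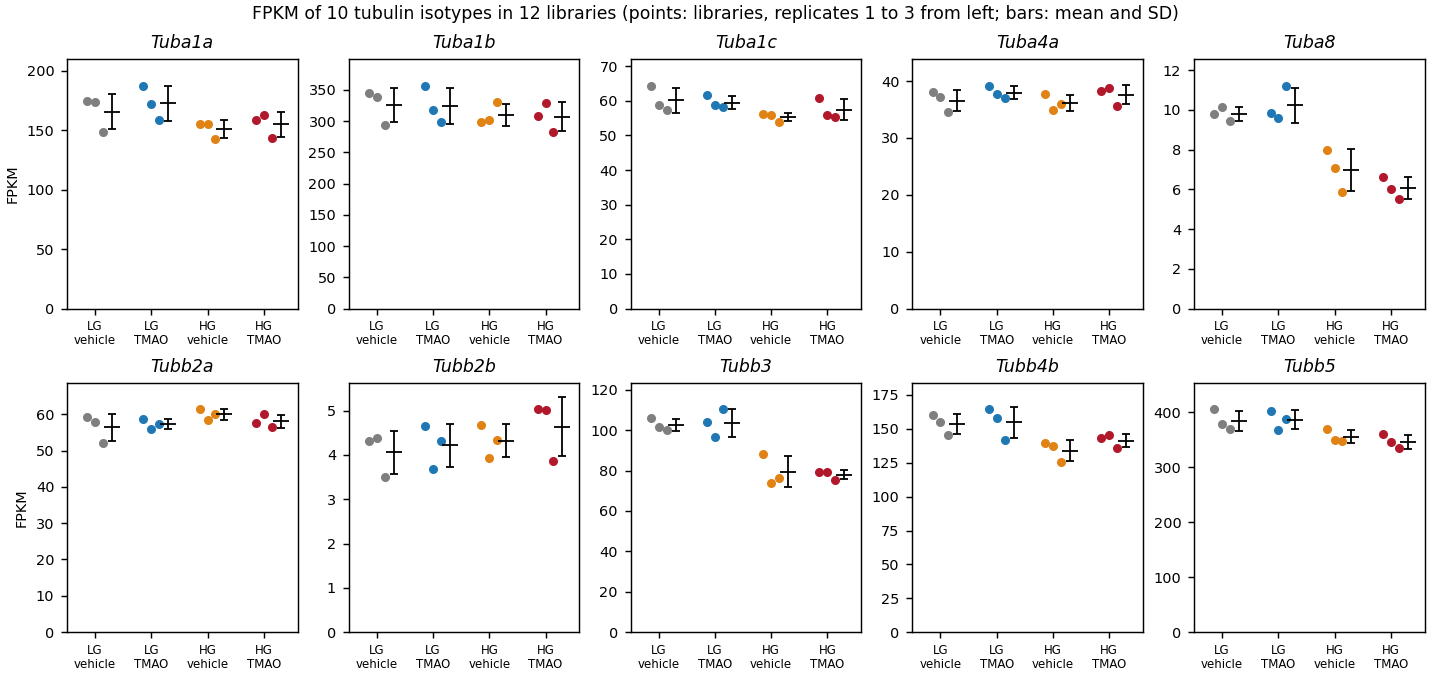
FPKM (y axis, starting at 0, scaled per gene) of the 10 isotypes in the 4 conditions, with 1 point per library and black bars for mean and SD of 3 libraries. For Tuba8 and Tubb3 the 6 high-glucose libraries lie below the 6 low-glucose libraries, while Tuba4a and Tubb2b overlap across conditions.

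As shares of the summed α-tubulin FPKM, Tuba1b made up 53.0 to 58.1%, Tuba1a 25.0 to 28.9%, Tuba1c 9.41 to 10.6%, Tuba4a 5.98 to 6.82% and Tuba8 1.01 to 1.99%. HG vehicle replicate 3 held both the highest Tuba1b share and the lowest Tuba1a share, the closest pair in sequence. On the β side Tubb5 made up 47.3 to 50.1%, Tubb4b 17.8 to 20.3%, Tubb3 10.5 to 13.8% and Tubb2a 6.82 to 8.66%. Tubb6, a β isotype outside the chosen 10, contributed 9.67 to 11.1%. The Tuba8 share was 1.64% ± 0.093 (SD, n = 3) in LG vehicle and 1.70% ± 0.25 in LG TMAO, against 1.25% ± 0.21 in HG vehicle and 1.07% ± 0.073 in HG TMAO, so its lower level at high glucose was also a smaller part of the α pool. The Tubb3 share was 12.8% ± 0.24 in LG vehicle and 12.9% ± 0.83 in LG TMAO, and it was 11.1% ± 0.58 in HG vehicle and 10.9% ± 0.13 in HG TMAO. Tubb2a moved the other way as a share, from 7.05% ± 0.22 in LG vehicle and 7.14% ± 0.10 in LG TMAO to 8.37% ± 0.27 in HG vehicle and 8.15% ± 0.24 in HG TMAO. The mean FPKM of Tubb2a moved less, from 56.4 to 59.9 with vehicle and from 57.4 to 58.1 with TMAO. Its larger share thus also reflects a lower β sum at high glucose.

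**Figure D2:**
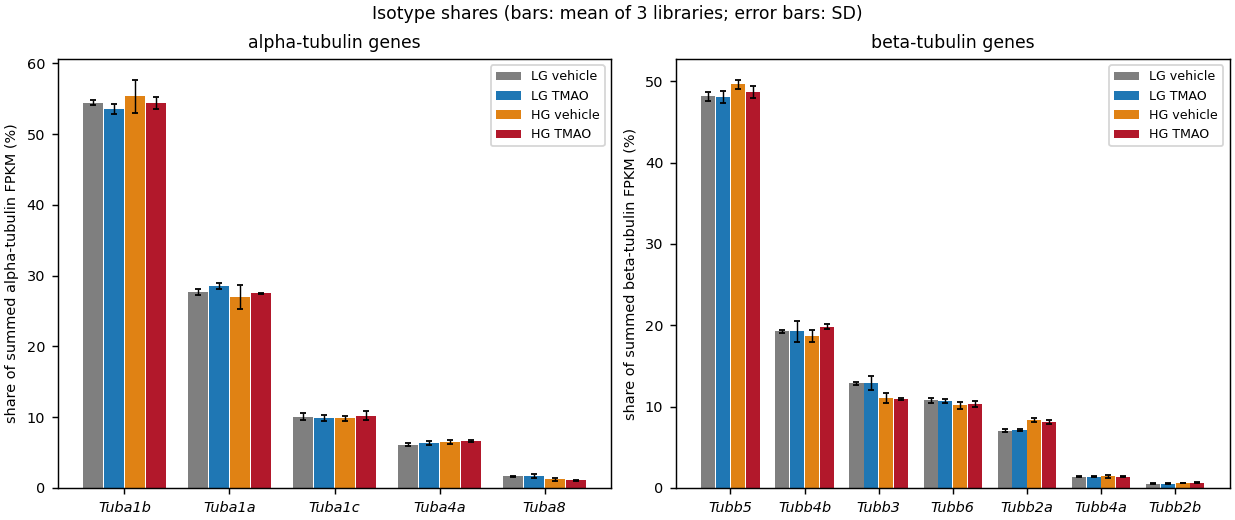
Share of summed FPKM (y axis, percent) for α-tubulin genes (left) and β-tubulin genes (right) in the 4 conditions, as mean bars with SD of 3 libraries. Tuba1b holds 53.0 to 58.1% of the α pool and Tubb5 47.3 to 50.1% of the β pool across the libraries.

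The pools themselves were lower on average at high glucose. Summed β-tubulin, with the genes outside the 10 included, was 799 ± 37.6 FPKM in LG vehicle, 804 ± 30.0 in LG TMAO, 717 ± 32.5 in HG vehicle and 713 ± 26.3 in HG TMAO (SD, n = 3). Every HG library had a lower β sum than every LG library. Summed α-tubulin was 598 ± 46.9 and 605 ± 46.0 at low glucose and 560.2 ± 8.15 and 564 ± 36.2 at high glucose, for vehicle and TMAO in that order, with overlap between libraries. The ratio of the β to the α sum was 1.34 ± 0.056 in LG vehicle, 1.33 ± 0.070 in LG TMAO, 1.28 ± 0.070 in HG vehicle and 1.27 ± 0.045 in HG TMAO, and these ranges overlapped. As in all bulk RNA, fewer cells of a kind and less RNA per cell cannot be told apart.

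The comparison of high with low glucose asks how the stimulated cells differ from unstimulated ones. With vehicle, 3 isotypes were called lower at an adjusted p under 0.05 (edgeR quasi-likelihood test, Benjamini-Hochberg over all tested genes) and 0 higher, where 1.31% of all tested genes were called lower. With TMAO, 3 were again called lower and 0 higher, where 1.64% of all genes were. Tuba8 and Tubb3 were called in both, Tubb4b with vehicle and Tubb5 with TMAO. The libraries did not overlap, with high glucose lower, for 5 isotypes with vehicle (Tuba1c, Tuba8, Tubb3, Tubb4b and Tubb5) and for 3 with TMAO (Tuba8, Tubb3 and Tubb5), where this held for 9.49% and 9.43% of all genes. No isotype had its high-glucose libraries all above, where 9.28% and 8.98% of all genes did. Since the choice of genes used this contrast, nothing is read from these counts. The estimated log2 fold change was negative for 8 of 10 isotypes in each treatment, with medians of -0.11 and -0.10 beside 0.0021 and 0.0012 over all genes, and it was positive for Tubb2a and Tubb2b.

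Tuba8, an α-tubulin known for expression in heart, skeletal muscle, testis and brain, had the lowest values of its 12 libraries at high glucose. Its FPKM in replicates 1, 2 and 3 was 9.78, 10.2 and 9.45 in LG vehicle and 9.85, 9.60 and 11.2 in LG TMAO. At high glucose it was 7.97, 7.08 and 5.85 with vehicle and 6.62, 6.01 and 5.52 with TMAO. All 6 HG libraries lay below all 6 LG libraries. These values rest on 399 to 475 reads per LG library and 214 to 338 per HG library. The log2 fold change of high against low glucose was -0.49 (SE 0.095, a change of -28.6%) with vehicle and -0.76 (SE 0.096, -40.7%) with TMAO.

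The Tuba8 promoter window is shown because this gene had the widest glucose difference of the 10 (RefSeq, GRCm38.p6, plus strand, 250 bases before to 50 after the annotated start, chr6:121210484-121210783).
Tuba8: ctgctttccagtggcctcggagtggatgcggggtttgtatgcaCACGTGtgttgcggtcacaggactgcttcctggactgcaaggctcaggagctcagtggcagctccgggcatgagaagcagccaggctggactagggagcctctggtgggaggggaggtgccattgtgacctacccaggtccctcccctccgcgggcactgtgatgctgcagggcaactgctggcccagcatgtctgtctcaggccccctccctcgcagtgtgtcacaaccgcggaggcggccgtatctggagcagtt
The capitals mark the E-box CACGTG, which reads the same on both strands. A promoter window was matched for 9 of the 10 isotypes, all except Tubb2b, and CACGTG occurred in 2 of them, Tuba8 and Tubb5, beside 7.15% of 32851 promoters. The GC box GGGCGG occurred in 7 of 9 on either strand (35.7% of all promoters), the CCAAT box in 5 of 9 (37.4%), the letters TGACG in 4 of 9 (20.8%), TATAAA in 2 of 9 (13.6%) and the full CRE TGACGTCA, which contains TGACG, in Tubb2a (1.79%). Of these 6 motifs the Tuba8 window held only CACGTG. These matches are descriptions of letters, not of binding.

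Tubb3 had the next widest difference. Its FPKM was 106, 102 and 99.9 in LG vehicle and 104, 96.5 and 110.3 in LG TMAO, against 88.2, 74.0 and 76.2 in HG vehicle and 79.1, 79.3 and 75.4 in HG TMAO. The lowest LG library, at 96.5, was above the highest HG library, at 88.2. The log2 fold change was -0.37 (SE 0.058, a change of -22.4%) with vehicle and -0.41 (SE 0.058, -24.7%) with TMAO, estimates that lay within 1 SE of each other. These values rest on 2413 to 3859 reads per library.

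Tubb4b and Tubb5, the broadly expressed β isotypes, were lower by less. Tubb4b stood at 160.1, 155.2 and 145.8 FPKM in LG vehicle and 139.7, 137.1 and 125.3 in HG vehicle, which do not overlap. With TMAO it was 164, 158 and 142 at low and 143, 145 and 136 at high glucose, which overlap. Its log2 fold changes were -0.20 (SE 0.052) and -0.13 (SE 0.052) for vehicle and TMAO. Tubb5 stood at 405.1, 379 and 370.0 FPKM in LG vehicle and 369, 350 and 348 in HG vehicle, then at 403, 368 and 388 in LG TMAO and 360, 346 and 335 in HG TMAO. The lowest LG and highest HG libraries lay within 1 FPKM of each other with vehicle, and the groups were clear of each other with TMAO. Its log2 fold changes were -0.11 (SE 0.044) and -0.16 (SE 0.044). The calls of Tubb4b and Tubb5 rest on single libraries and on the test. The Tubb4b call with vehicle was lost in both limma fits and when any of 4 libraries was left out (LG vehicle replicates 1 and 2, HG vehicle replicates 2 and 3). The Tubb5 call with TMAO was lost in both limma fits and without any of 6 libraries (LG vehicle replicate 2, LG TMAO replicates 1 and 3, HG vehicle replicate 3, HG TMAO replicates 2 and 3).

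The other α isotypes had smaller log2 differences than Tuba8. Tuba1a, which is prominent in developing neurons, averaged 166 ± 14.6 FPKM in LG vehicle, 173 ± 14.5 in LG TMAO, 151 ± 7.37 in HG vehicle and 155 ± 10.3 in HG TMAO, with overlapping libraries and log2 fold changes of -0.13 (SE 0.071) and -0.15 (SE 0.071) for glucose. With TMAO its change of -10.1% was close to that of Tubb5 (-10.2%), with a larger SE, and it passed the threshold in 2 of 19 alternative fits, without the filter on low counts or with the replicate number as a block. Tuba1b, the main α isotype here, had -0.068 (SE 0.080) and -0.078 (SE 0.080). Leaving out 1 library moved these to between -0.14 (without LG vehicle replicate 3) and -0.027 (without LG vehicle replicate 1) with vehicle, and to between -0.13 (without LG TMAO replicate 3) and -0.0041 (without LG TMAO replicate 1) with TMAO. Tuba1c had -0.12 (SE 0.052) and -0.051 (SE 0.051), and Tuba4a -0.012 (SE 0.050) and -0.012 (SE 0.049). For Tuba4a the 95% interval ran from -0.11 to 0.089 with vehicle and from -0.11 to 0.090 with TMAO. The neighbouring β genes Tubb2a and Tubb2b had positive estimates, of 0.091 (SE 0.052) and 0.019 (SE 0.052) for Tubb2a and 0.087 (SE 0.12) and 0.14 (SE 0.12) for Tubb2b. Tubb2b held 150 to 258 reads per library, the fewest of the 10.

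**Figure D3:**
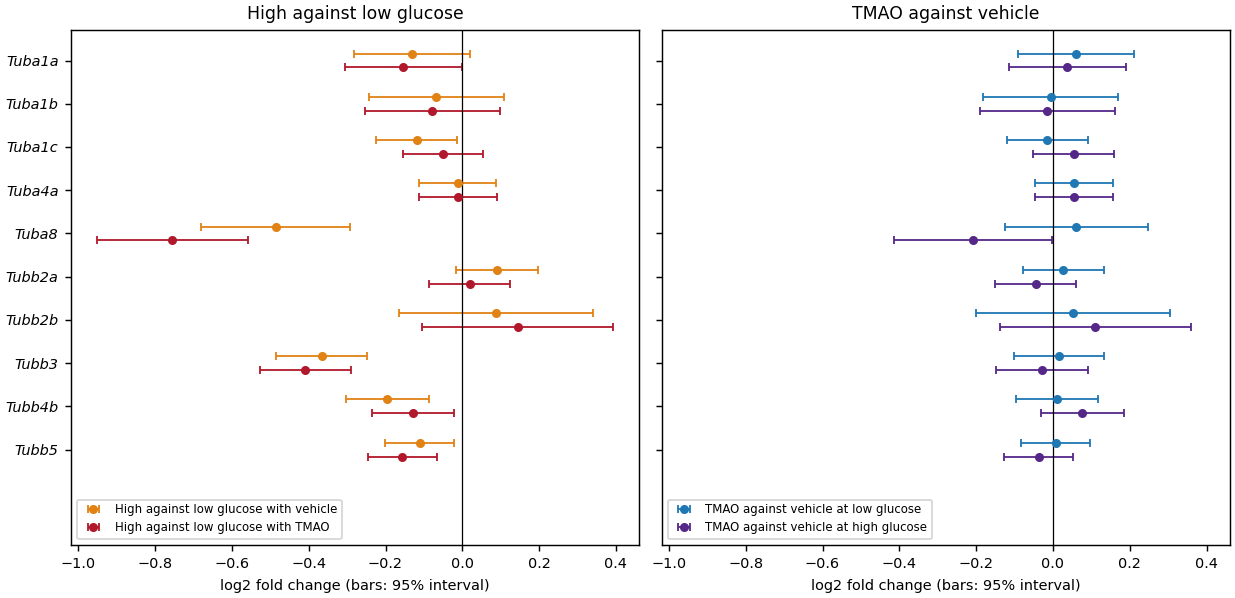
Log2 fold change (x axis) with its 95% interval for each isotype, for high against low glucose (left, with vehicle or TMAO) and TMAO against vehicle (right, at low or high glucose). Tuba8 and Tubb3 lie farthest to the left for glucose, at -0.49 and -0.76 and at -0.37 and -0.41, and in the TMAO panel only the Tuba8 interval at high glucose lies to one side of 0.

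The comparison of TMAO with vehicle at high glucose asks whether TMAO changes stimulated cells. By edgeR with the Benjamini-Hochberg adjustment, 0 of 10 isotypes were called, where 0% of all 16222 genes were, and DESeq2 also called 0 isotypes. The libraries overlapped for all 10, where TMAO lay clear above vehicle for 5.47% of all genes and clear below for 5.65%. Estimates were positive for 5 isotypes and negative for 5, and 1 isotype, Tuba8, had an unadjusted p under 0.05, as did 5.35% of all genes. Its libraries overlapped, at 7.97, 7.08 and 5.85 FPKM with vehicle and 6.62, 6.01 and 5.52 with TMAO, and the log2 fold change was -0.21 (SE 0.10, 95% interval -0.41 to -0.0034). Leaving out 1 library moved it to between -0.31 (without HG vehicle replicate 3) and -0.10 (without HG vehicle replicate 1). The edgeR adjusted p was 0.91, and the exact two-sided permutation test on FPKM gave p = 0.3, where 3 against 3 libraries cannot go below 0.1. The other 9 isotypes lay between -0.045 for Tubb2a and 0.11 for Tubb2b, with edgeR adjusted p-values up to 0.996. Their 95% intervals all held 0, from -0.13 to 0.053 for the most abundant isotype, Tubb5, from -0.19 to 0.16 for Tuba1b and from -0.14 to 0.36 for Tubb2b, the widest of the 9. Leaving out 1 library moved Tubb2a to between -0.070 and -0.026 and Tubb2b to between 0.043 and 0.22.

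The same comparison was made at low glucose. EdgeR and DESeq2 again called 0 of 10 isotypes, where 0.00616% of all genes, a single gene, was called by edgeR, and 0 isotypes had an unadjusted p under 0.05, where 2.2% of all genes did. The libraries again overlapped for all 10, where they did not for 3.18% of all genes in each direction. Log2 fold changes ran from -0.014 for Tuba1c to 0.061 for Tuba8 (SE 0.091, 95% interval -0.12 to 0.25). All 10 edgeR adjusted p-values were 1.0 after rounding, and leaving out 1 library turned the sign of 9 of the 10 estimates.

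Whether TMAO alters the glucose difference was tested by an interaction term, which for Tuba8 is not independent of the choice of genes. The Tuba8 glucose difference was lower by 0.27 on the log2 scale with TMAO than with vehicle, that is -0.27 (SE 0.14, 95% interval -0.55 to 0.0070), with an edgeR adjusted p of 1.0. It ranged from -0.38 without HG vehicle replicate 3 to -0.16 without HG vehicle replicate 1. The other 9 interaction estimates lay between -0.072 for Tubb2a and 0.068 for Tuba1c. Leaving out 1 library moved Tubb2a to between -0.106 and -0.017 and Tuba1c to between 0.018 and 0.102. Neither edgeR nor DESeq2 called an isotype, where edgeR called 0% of all genes, and 0 of 10 had an unadjusted p under 0.05, where 3.36% of all genes did.

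The genes whose log2 expression most resembled Tuba8 over the 12 libraries were sought among 12308 genes with a mean count of at least 50. The highest Pearson correlations were those of Zfp746 (0.98), Irf1 (0.97), Mnx1 (0.97), Camsap3 (0.96) and Tef (0.96), and the lowest those of Syt4 (-0.98), Lrp12 (-0.98) and Coq10b (-0.97). Irf1 is an interferon-responsive transcription factor, Mnx1 a β-cell transcription factor, and Syt4 a synaptotagmin of secretory vesicles. The libraries share the glucose conditions, so these values mostly rank genes by how closely they follow the same 2 groups of libraries. Among the isotypes the correlation with Tuba8 was 0.95 for Tubb3, 0.87 for Tubb5, 0.70 for Tubb4b, 0.63 for Tuba1a and 0.59 for Tuba1c. It was 0.27 for Tuba1b, 0.16 for Tuba4a, -0.21 for Tubb2b and -0.29 for Tubb2a.

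Genes that act with tubulin were followed in lists by role, 126 genes of which 115 were tested, outside the chosen 10. The lists were drawn up with earlier results of these data known, so calls within them are not independent support. With vehicle 1 was called higher and 2 lower at high glucose, 2.61% of those tested where 3.3% of all genes were called. With TMAO 1 was higher and 3 lower, 3.48% where 3.64% of all genes were called. Median log2 fold changes over the 115 genes were -0.0062 and -0.0056. Neither TMAO comparison called any of the 115 in edgeR, where 2 at high and 3 at low glucose had an unadjusted p under 0.05, beside 5.35% and 2.2% of all genes.

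Among the other α- and β-tubulin genes 4 of 6 were tested and Tubb6, a widely expressed β isotype, fell in both glucose comparisons. It stood at 90.2, 88.4 and 80.0 FPKM in LG vehicle, 91.3, 84.1 and 83.2 in LG TMAO, 79.2, 67.9 and 71.6 in HG vehicle and 76.9, 76.8 and 67.3 in HG TMAO. Every HG library lay below every LG library. The log2 fold change was -0.24 (SE 0.062, edgeR adjusted p 0.030) with vehicle and -0.23 (SE 0.062, adjusted p 0.043) with TMAO. The estimates stayed negative in all 19 alternative fits of each contrast, but both limma fits lost both calls, as did leaving out any of LG vehicle replicates 1 and 2 and HG vehicle replicates 2 and 3 (with vehicle, adjusted p up to 0.16 over all fits) and any of the 6 TMAO libraries, LG vehicle replicate 2 or HG vehicle replicate 3 (with TMAO, up to 0.26 over all fits). Tubb4a held 331 to 524 reads and was not called, and Tuba3a and Tubb1 held at most 19 and 18.

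Among 21 folding genes, which include the CCT chaperonin and the tubulin cofactors, Tbcel was called and rose. In edgeR 1 gene with vehicle and 2 with TMAO had an unadjusted p under 0.05, where 13.0% and 14.7% of all genes did. Tbcel, a cofactor E-like protein known to destabilise tubulin, stood at 6.59, 6.06 and 6.68 FPKM in LG vehicle and 8.98, 8.88 and 9.99 in HG vehicle, and at 6.75, 6.37 and 6.65 in LG TMAO and 8.45, 8.65 and 9.62 in HG TMAO. The groups were far apart relative to their spread, with log2 fold changes of 0.53 (SE 0.060, edgeR adjusted p 2.46e-07) and 0.44 (SE 0.060, adjusted p 9.26e-06). Both calls held in all 19 alternative fits. The most expressed folding gene, the CCT subunit Cct8, had -0.0050 and 0.026.

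Among 30 tested microtubule-associated proteins and stathmins, Camsap3 fell in both glucose comparisons and Map6 with TMAO. In this list 3 genes with vehicle and 11 with TMAO had an unadjusted p under 0.05, where 13.0% and 14.7% of all genes did, and the median log2 fold change was -0.038 and -0.056. Camsap3 protects microtubule minus ends, and Map6 stabilises microtubules. Camsap3 averaged 8.69 ± 0.11 and 8.76 ± 0.59 FPKM at low glucose (vehicle, TMAO) and 7.20 ± 0.61 and 6.63 ± 0.71 at high glucose, with log2 fold changes of -0.27 (SE 0.071, edgeR adjusted p 0.028) and -0.40 (SE 0.072, adjusted p 0.00058). Map6 averaged 5.74 ± 0.092 in LG TMAO and 4.82 ± 0.38 in HG TMAO, a log2 fold change of -0.25 (SE 0.067, adjusted p 0.031). With vehicle it averaged 5.48 ± 0.22 and 4.85 ± 0.46, a log2 fold change of -0.17 (SE 0.067, adjusted p 0.20). The Camsap3 call with TMAO held in all 19 alternative fits. Both limma fits lost the Camsap3 call with vehicle and the Map6 call, as did leaving out any library of LG vehicle or HG vehicle replicates 2 or 3 for Camsap3 (adjusted p up to 0.17 over all fits) and any library of LG TMAO or HG TMAO replicates 1 or 3 for Map6 (up to 0.26 over all fits). The depolymerising protein Stmn1, the most expressed of this list at 201 to 229 FPKM, had -0.029 and -0.059 with adjusted p-values of 0.85 and 0.61.

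No gene was called by edgeR in the other 4 lists in either glucose comparison. They hold 12 γ-, δ- and ε-tubulin and ring complex genes (1 and 2 with an unadjusted p under 0.05, for vehicle and TMAO), 5 genes of tubulin mRNA autoregulation (0 and 0), 21 tested modifying enzymes (1 and 1) and 22 tested motor and dynactin genes (2 and 2). Over all genes 13.0% with vehicle and 14.7% with TMAO had an unadjusted p under 0.05. Their most expressed members, the nucleator Tubg1, the deadenylase scaffold Cnot1, the deacetylase Hdac6 and the dynactin subunit Dctn3, had glucose log2 fold changes of -0.052, -0.017, 0.017 and 0.037 with vehicle and -0.17, -0.0018, 0.027 and 0.073 with TMAO. Ttc5, the autoregulation factor, stood at 10.6 to 11.95 FPKM and had -0.051 with vehicle and -0.066 with TMAO, with adjusted p-values of 0.79 and 0.66.

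**Figure D4:**
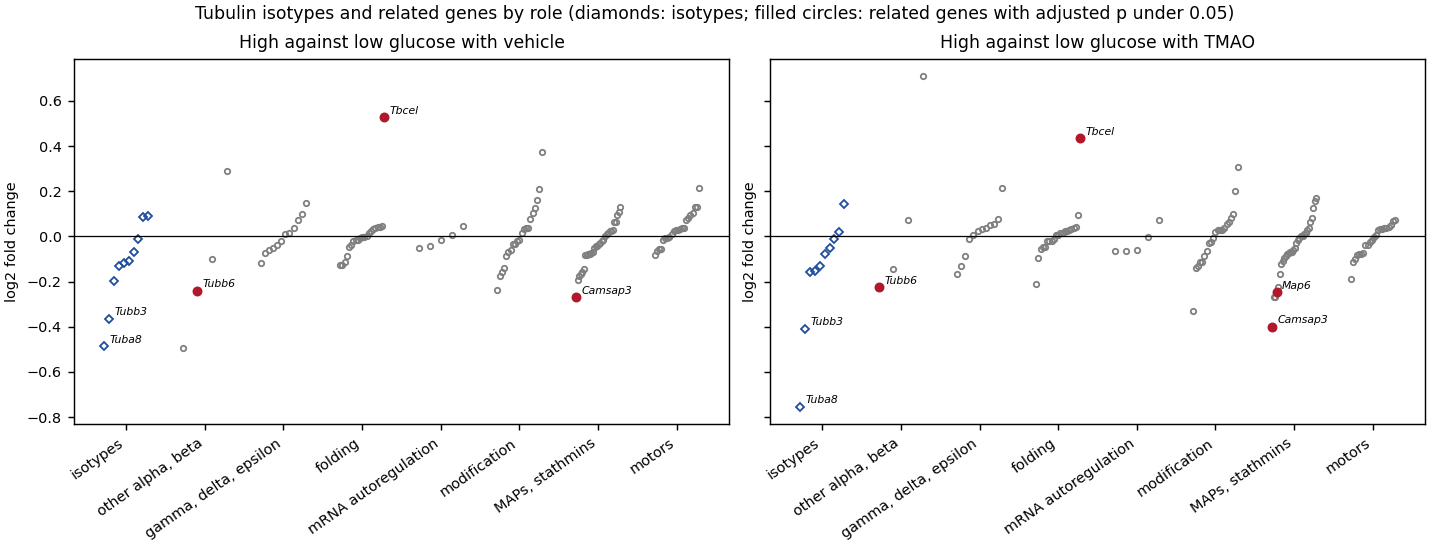
Log2 fold change of high against low glucose (y axis) for the 10 isotypes and the 115 tested related genes by role, with vehicle (left) and TMAO (right). Blue diamonds are the isotypes, whose tests are not shown, and circles the related genes, of which the filled ones passed an adjusted p of 0.05 in edgeR over all tested genes: Tubb6, Tbcel and Camsap3 in both panels and Map6 with TMAO.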

How the data were processed

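RNA of 12 MIN6 libraries was sequenced after poly-T selection and an NEBNext Ultra preparation. The authors deposited 1 table of raw read counts per gene and 1 of FPKM values, which follow from those counts and gene lengths. The submitters' processing notes name HISAT2 2.0.5, featureCounts 1.5.0-p3, DESeq2 1.16.1 and mm10. The annotation release, the strand setting and the handling of reads that match several genes are not given in the sources used here. Joins used gene IDs, since the 2 tables differ in row order.

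Counts were tested with edgeR 4.0.16 (R 4.3.3, TMM scaling, filterByExpr, glmQLFTest) in 1 fit of all 12 libraries with 1 mean per condition, and p-values were adjusted by Benjamini-Hochberg over 16222 genes. Intervals are 95%. Alternatives were DESeq2 1.42.0, DESeq2 size factors, no filter, at least 10 counts in every library, limma 3.58.1 on log2(FPKM + 1) and log2(FPKM + 0.1), a replicate block, and each library left out. The fit was also run on simulated counts with known changes in HG TMAO, and the outcome is not given here. Totals of 16793162 to 22340542 reads set the counting precision.

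The isotypes, the role lists and the rules for named genes were chosen with earlier results of these data known. Named genes are the 10 isotypes, the 4 largest changes among called genes of each list, its most expressed gene, the genes most and least like Tuba8, and genes overlapping an isotype. P-values set differences between condition means against the spread between these libraries. No sample was left out.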

Additional observations from a re-analysis of the deposited data

How the results depend on the processing

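Of 950 refits of the isotypes' log2 fold changes, 54 changed sign, 3 for glucose with vehicle (Tuba4a and Tubb2b), 3 for glucose with TMAO (Tuba4a and Tubb2a), 5 and 20 for TMAO at high and low glucose and 23 for the interaction. None of these was called. In the glucose contrasts 14 refits lost a call, of Tubb4b or Tubb5, and 4 gained one. Leaving out 1 library moved the glucose estimates of 8 isotypes by over 1.5 times in at least 1 treatment. With vehicle they ranged from -0.20 to -0.093 for Tuba1a, -0.15 to -0.067 for Tuba1c, -0.054 to 0.017 for Tuba4a, 0.034 to 0.13 for Tubb2a, -0.0099 to 0.15 for Tubb2b and -0.14 to -0.072 for Tubb5, with an extreme without LG vehicle replicate 3 for each. With TMAO they ranged from -0.21 to -0.089 for Tuba1a, -0.093 to -0.024 for Tuba1c, -0.037 to 0.025 for Tuba4a, -0.0075 to 0.038 for Tubb2a, 0.058 to 0.25 for Tubb2b and -0.19 to -0.083 for Tubb4b. The interaction of Tuba4a went from 0.00094 to -0.0025 with at least 10 counts in every library and to -1.57e-05 and -3.16e-05 with limma at pseudocounts of 1 and 0.1. The other reversals came from leaving out 1 library. For TMAO at high glucose the estimates then ranged from -0.0029 to 0.089 for Tuba1a, -0.069 to 0.039 for Tuba1b and -0.079 to 0.056 for Tubb3. At low glucose they ranged from -0.012 to 0.12 for Tuba1a, -0.078 to 0.048 for Tuba1b, -0.048 to 0.036 for Tuba1c, -0.011 to 0.10 for Tuba8, -0.028 to 0.062 for Tubb2a, -0.043 to 0.14 for Tubb2b, -0.034 to 0.063 for Tubb3, -0.035 to 0.068 for Tubb4b and -0.023 to 0.045 for Tubb5. For the interaction they ranged from -0.078 to 0.050 for Tuba1a, -0.063 to 0.064 for Tuba1b, -0.027 to 0.041 for Tuba4a, -0.030 to 0.17 for Tubb2b and -0.093 to 0.041 for Tubb3.

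Over all genes, leaving out 1 library gave 328 to 625 calls for glucose with vehicle (536 with all; 328 without HG vehicle replicate 3) and 344 to 657 with TMAO (591 with all; 344 without HG TMAO replicate 3), with 2 to 3 isotypes in each. It gave 0 to 1 gene for each TMAO comparison, 0 to 2 for the interaction and 0 isotypes in these. limma called 347 and 337 genes for glucose with TMAO (pseudocounts 1 and 0.1), and 0 for TMAO at low glucose in place of 1. Without a filter the TMAO comparisons gave 13 genes (high glucose) and 7 (low glucose) and the interaction 6. DESeq2 gave 1 for TMAO at high glucose. The causes were not tested. The refits of Tubb6, Tbcel, Camsap3 and Map6 were chosen after seeing the data. Whether the replicate numbers pair the libraries across conditions is not stated in the sources used here. Of 18 same-numbered pairs 2 correlated above 0.1, with a mean of 0.033, beside a mean of -0.016 for 36 different-numbered pairs. Of 12 libraries 9 correlated best with their own number. The main fit took no account of a possible pairing. The replicate block moved the isotypes called for glucose with TMAO from 3 to 5, adding Tuba1a and Tubb4b, and left 3 with vehicle and 0 in the other contrasts. Tuba8 and Tubb2b, with at most 475 and 258 reads, have the widest errors.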
